A study of Mus musculus with 16 samples.

Results

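To examine how interferon gamma (IFNγ) and inhibition of PARP enzymes alter histone acetylation at antiviral genes, H3K27ac peaks were collected around 10 interferon-stimulated genes of antiviral defence, out of 21951 protein-coding genes in the annotation: Ifih1, Ddx58, Ifit1, Ifit2, Ifit3, Rsad2, Isg15, Usp18, Oasl1 and Oasl2. The genes were given by name and not by their peaks, and every peak lying within 50 kb of any annotated start site of a gene was taken, whatever its score. H3K27ac, acetylation of lysine 27 on histone H3, marks active promoters and enhancers, and it was profiled with ChIP-seq in BMDMs, which are primary macrophages grown in culture, with LCCM, from the bone marrow of C57Bl6 mice 8 to 12 weeks old. The 4 conditions were untreated cells (Control), cells given 100 ng/mL IFNγ for 1 h (IFNγ), cells given the PARP inhibitor PJ34 at 20 µM without IFNγ (PJ34), and cells given 20 µM PJ34 for 1 h and then 100 ng/mL IFNγ for 1 h (IFNγ+PJ34). Each condition had 2 ChIP samples and 2 input samples, 8 and 8 in all, but a single deposited peak list made from both ChIP replicates. For this reason no value below has a replicate error and no difference was tested.

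The 4 lists held between 40708 and 44090 peaks covering 42.5 to 52.6 Mb, with Control covering the most sequence. They hold no read counts, so the depth behind each value is unknown, and peaks were compared by their rank within their own list. The score percentile used below runs from 0 for the lowest-scoring peaks of a list to 100 for the highest-scoring. All 10 macrophage markers examined (Csf1r and Spi1 among them) had a promoter peak, meaning a peak within 1 kb of a start site, in every list. None of the T cell, erythroid, fibroblast or hepatocyte markers had one, while 1 of 4 B cell, 1 of 2 dendritic cell and at most 1 of 4 neutrophil markers did.

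Cells sense viral RNA in the cytoplasm through the helicases MDA5 (encoded by Ifih1) and RIG-I (encoded by Ddx58), which signal the production of type I interferon. Interferons in turn induce a set of effectors: IFIT proteins bind foreign RNA, viperin (Rsad2) makes a chain-terminating nucleotide, ISG15 is a ubiquitin-like protein coupled to other proteins, and USP18 removes ISG15 and dampens interferon receptor signalling. The classical promoter elements for these genes are the interferon-stimulated response element (ISRE), bound by proteins of the IRF family, and the gamma-activated site (GAS), a short element of IFNγ-responsive genes.

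To show where such elements lie, the 300-base RefSeq promoter windows (assembly GRCm38.p6, 250 bases before to 50 after each start) were searched on both strands. Windows were present for 9 of the 10 genes. The ISRE core, written as GAAA, any 2 bases and GAAA, was found in 6 of these 9 genes and in 3.44% of all 32851 promoter windows. The GAS core TTCNNNGAA was found in 1 of the 9 genes, Ifit2, and in 8.30% of all windows. Ifit1 and Ifit3 each held 2 ISRE matches, with the same letters in the same order, separated by 9 bases in Ifit1 and 24 bases in Ifit3. Isg15 held 3 overlapping matches, from −78 to −66 bases relative to its start, and Rsad2 held 1 at −120. The matches of Ifih1 and Ddx58 lay just after the start, at +33 and +3. The stretches before the start that carry these matches are given below 5′ to 3′ on the strand of the gene, since they hold the interferon elements of the peaks described next, with the ISRE core in capitals for Ifit1 (chr19:34640709-34640888, plus strand), Ifit3 (chr19:34583349-34583528, plus strand), Isg15 (chr4:156200819-156200998, minus strand) and Rsad2 (chr12:26456453-26456632, minus strand), and the GAS core in capitals for Ifit2 (chr19:34550444-34550693, plus strand).
Ifit1: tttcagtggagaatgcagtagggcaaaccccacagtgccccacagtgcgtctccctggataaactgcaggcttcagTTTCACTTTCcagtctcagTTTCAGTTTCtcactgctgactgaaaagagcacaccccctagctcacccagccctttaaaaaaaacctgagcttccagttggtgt
Ifit3: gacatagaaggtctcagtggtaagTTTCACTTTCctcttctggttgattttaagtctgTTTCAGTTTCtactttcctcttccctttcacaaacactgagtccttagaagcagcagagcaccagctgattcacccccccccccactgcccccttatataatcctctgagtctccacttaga
Isg15: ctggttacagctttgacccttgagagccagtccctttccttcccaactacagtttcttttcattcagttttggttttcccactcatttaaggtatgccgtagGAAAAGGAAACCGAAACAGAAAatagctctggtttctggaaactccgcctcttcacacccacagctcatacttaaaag
Rsad2: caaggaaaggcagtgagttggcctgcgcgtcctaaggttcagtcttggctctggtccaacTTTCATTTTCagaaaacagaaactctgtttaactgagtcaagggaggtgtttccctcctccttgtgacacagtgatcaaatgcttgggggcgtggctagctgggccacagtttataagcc
Ifit2: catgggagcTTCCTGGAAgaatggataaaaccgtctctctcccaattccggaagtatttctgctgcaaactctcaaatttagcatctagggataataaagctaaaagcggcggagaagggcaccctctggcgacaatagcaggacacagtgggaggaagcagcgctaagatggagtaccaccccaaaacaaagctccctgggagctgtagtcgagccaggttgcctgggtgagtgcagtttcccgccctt
A H3K27ac peak covered all 10 ISRE matches in Control and IFNγ+PJ34, and 9 of 10 in IFNγ and PJ34, where the Rsad2 match lay in a gap between neighbouring peaks of the promoter region. The control motif GAANNNTTC was found in Ifih1 alone of the 9 genes (6.84% of all windows), the AP-1 site TGANTCA in Ifit3 and Rsad2 (7.81%), and the PU.1 site GAGGAAGT in none of them (3.20%). These matches describe the letters only and do not show binding.

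**Figure D1:**
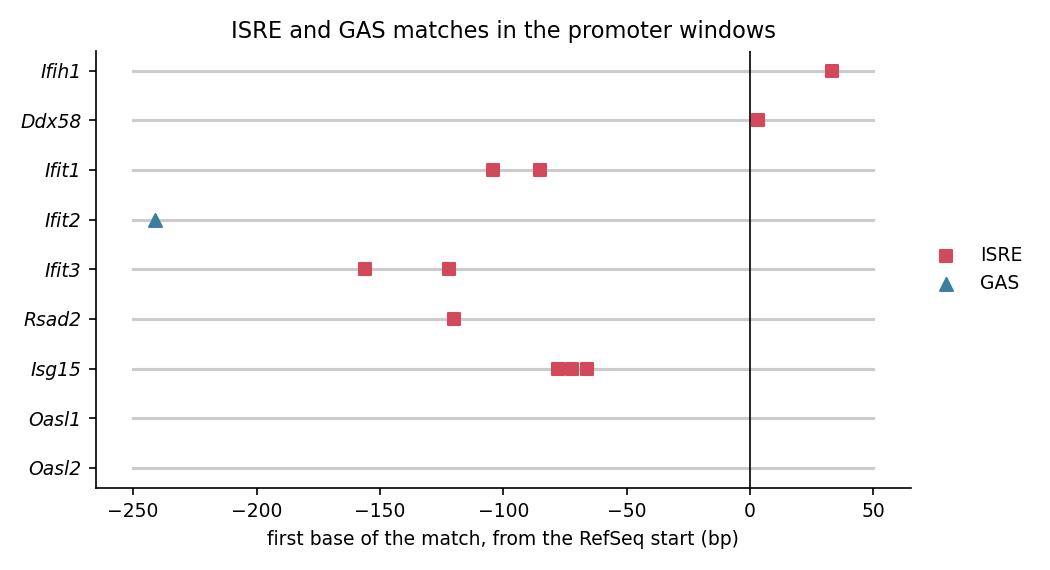
Positions of ISRE (squares) and GAS (triangles) matches in the promoter windows of the 9 genes with a RefSeq window, as bases from the start site on the x axis. ISRE matches of Ifit1, Ifit3, Isg15 and Rsad2 sit between −156 and −66 bases, those of Ddx58 and Ifih1 at +3 and +33, and the GAS match of Ifit2 at −241.

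All 10 genes had a promoter peak in all 4 lists, the unstimulated Control included. The median score percentile of these peaks was 89.3 in Control, 85.1 in PJ34, 91.7 in IFNγ and 95.2 in IFNγ+PJ34. Over all genes with a promoter peak the medians were 85.7, 86.6, 84.4 and 82.0 in the same order. The antiviral promoters thus ranked close to other acetylated promoters in Control and PJ34, and above them in both lists from cells given IFNγ.

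**Figure D2:**
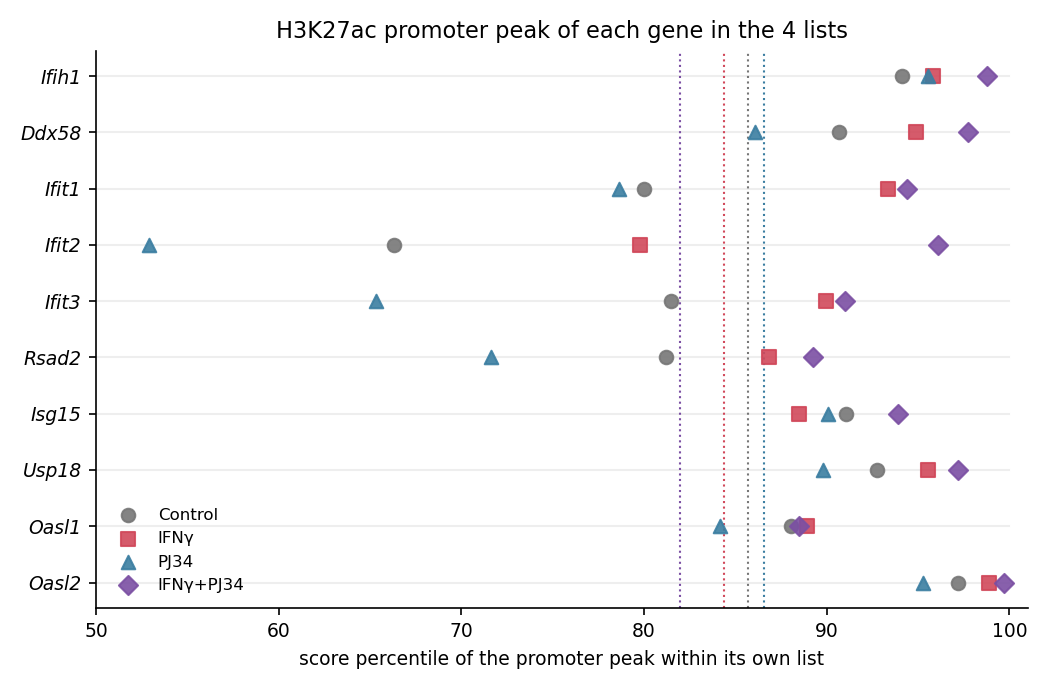
Score percentile (x axis, from 0 to 100 within a list and drawn from 50) of the highest-scoring H3K27ac peak within 1 kb of a start site for each gene, with circles for Control, squares for IFNγ, triangles for PJ34 and diamonds for IFNγ+PJ34, and a dotted line at the median of all gene promoters in each list. The IFNγ+PJ34 diamonds are farthest right for 9 of 10 genes, and the PJ34 triangles farthest left for 8 of 10.

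The genes of the RNA sensors carried high-ranking promoter peaks in every list. Ifih1 (chr2:62595798-62646255, minus strand) had a promoter peak at percentile 94.1 in Control, 95.5 in PJ34, 95.8 in IFNγ and 98.8 in IFNγ+PJ34. Ddx58 (chr4:40203773-40239828, minus strand) was at 90.7 in Control, 86.1 in PJ34, 94.9 in IFNγ and 97.7 in IFNγ+PJ34. Both sensors were therefore highest in IFNγ+PJ34, while Ddx58 was lowest in PJ34 and Ifih1 in Control. The fold enrichment over local background at the Ddx58 promoter was 28.9 in Control, 26.4 in PJ34, 42.8 in IFNγ and 54.5 in IFNγ+PJ34. At Ifih1 the unscaled fold enrichment was 47.2 in Control, 52.1 in PJ34, 39.3 in IFNγ and 53.8 in IFNγ+PJ34, and so lowest in IFNγ. Divided by the median promoter fold enrichment of each list, it was lowest in Control, at 1.82, against 2.03 in IFNγ.

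The 3 Ifit genes lie in a cluster on chromosome 19, with 32.8 kb between the starts of Ifit2 (chr19:34550694-34576419) and Ifit3 (chr19:34583531-34588731) and 57.3 kb between those of Ifit3 and Ifit1 (chr19:34640871-34650009), all on the plus strand. The Ifit1 promoter peak was at percentile 80.0 in Control, 78.6 in PJ34, 93.4 in IFNγ and 94.4 in IFNγ+PJ34. Its fold enrichment was 19.2 in Control, 12.5 in PJ34, 38.1 in IFNγ and 40.2 in IFNγ+PJ34. Both lists with IFNγ were thus above both lists without it, by either measure. The summit was assigned to Ifit1 in Control and IFNγ, and to the neighbouring gene Ifit1bl2 in PJ34 and IFNγ+PJ34. These scores therefore cannot be assigned to Ifit1 alone. The Ifit3 promoter peak was at 81.5 in Control, 65.3 in PJ34, 90.0 in IFNγ and 91.0 in IFNγ+PJ34. Its width was 2245 bp in Control, 1011 bp in PJ34, 3911 bp in IFNγ and 3284 bp in IFNγ+PJ34, so that the peak with PJ34 alone was both the lowest-ranking and the narrowest.

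Ifit2 had the lowest promoter percentile of the 10 genes in Control, IFNγ and PJ34, and the widest span between lists, at 66.3 in Control, 52.9 in PJ34, 79.8 in IFNγ and 96.1 in IFNγ+PJ34. The peak scored in IFNγ began 780 bp from the start site, and the peak over the start itself was at 74.4 in that list. In IFNγ+PJ34 a single peak of 4832 bp with a fold enrichment of 45.0 spanned the start and the sequence downstream of it. The same stretch was split into 3 peaks in Control (the start-site peak at a fold enrichment of 11.5), 2 in IFNγ and 5 in PJ34 (the start-site peak at 5.70). The summit of the IFNγ+PJ34 peak lay 2.72 kb after the start, in an Ifit2 intron. Separate peaks with their summit at that place were at percentile 74.8 in Control, 79.8 in IFNγ and 15.3 in PJ34. The way a peak was divided thus differed between lists at Ifit2, and this part of the difference in rank was not separated from the level of enrichment.

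**Figure D3:**
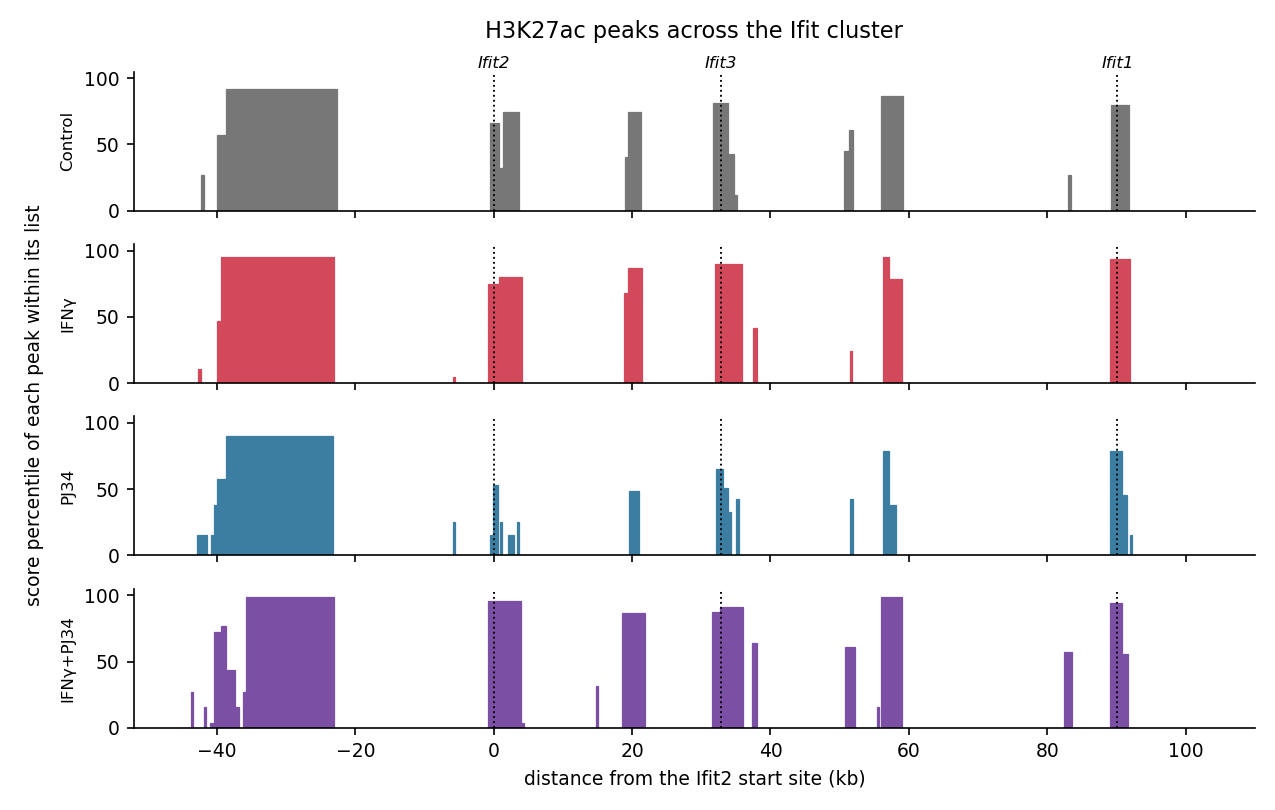
H3K27ac peaks of the 4 lists across the Ifit cluster, drawn as boxes with their true width (x axis, kb from the Ifit2 start site) and a height equal to their score percentile (y axis), with dotted lines at the 3 start sites. The peaks at Ifit2 and Ifit3 are low and split in PJ34, where the promoter peaks stand at 52.9 and 65.3, and high in IFNγ+PJ34, at 96.1 and 91.0. At Ifit3 the region is also split in Control (3 peaks) and IFNγ+PJ34 (2 peaks), and is 1 peak in IFNγ. The broad block to the left lies over Lipa.

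Rsad2 (chr12:26442746-26456452, minus strand) was at percentile 81.2 in Control, 71.6 in PJ34, 86.8 in IFNγ and 89.3 in IFNγ+PJ34. The fold enrichment of its promoter peak was 23.8 in Control, 10.3 in PJ34, 23.9 in IFNγ and 28.3 in IFNγ+PJ34. Control and IFNγ therefore had nearly the same unscaled fold enrichment at Rsad2, while PJ34 was below both. Divided by the median promoter fold enrichment of each list, it was 0.918 in Control, 0.436 in PJ34, 1.24 in IFNγ and 1.53 in IFNγ+PJ34. The neighbouring promoter of Cmpk2, which encodes a mitochondrial nucleotide kinase and lies 12.4 kb or more from the Rsad2 start, was at 85.0 in Control, 76.6 in PJ34, 84.9 in IFNγ and 93.6 in IFNγ+PJ34.

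Isg15 (chr4:156199424-156200818, minus strand) departed from the other genes. Its promoter peak was at percentile 91.1 in Control, 90.0 in PJ34, 88.5 in IFNγ and 93.9 in IFNγ+PJ34, with fold enrichments of 41.2, 30.1, 17.3 and 37.7. It was the only gene of the 10 with a lower percentile in IFNγ than in Control. In Control, IFNγ and PJ34 the peak was between 5099 and 5271 bp wide and also covered sequence near a start site of Agrn, a neighbouring gene that encodes the matrix protein agrin. Its summit in Control and PJ34 was assigned to Agrn. In IFNγ+PJ34 the Isg15 peak was separate, 2139 bp wide, with other peaks nearer to Agrn, so the score of the wider peaks cannot be assigned to Isg15 alone. Usp18 (chr6:121245906-121270917, plus strand) was at 92.8 in Control, 89.8 in PJ34, 95.6 in IFNγ and 97.2 in IFNγ+PJ34, the same order by rank as the Ifit genes. Its unscaled fold enrichment had another order, at 44.1 in Control, 23.7 in PJ34, 43.0 in IFNγ and 37.8 in IFNγ+PJ34. Divided by the median promoter fold enrichment of each list, these values were 1.70, 1.00, 2.23 and 2.05.

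The OAS-like genes lie 26.3 kb apart on chromosome 5 and encode relatives of the oligoadenylate synthetases that carry ubiquitin-like domains. Oasl2 (chr5:114896936-114912234, plus strand) had the highest promoter percentile of the 10 genes in Control, IFNγ and IFNγ+PJ34, at 97.2, 98.9 and 99.7, and stood at 95.3 in PJ34. Its fold enrichment was 52.2 in Control, 50.0 in PJ34, 64.8 in IFNγ and 79.2 in IFNγ+PJ34. Oasl1 (chr5:114923240-114937915, plus strand) was at 88.0 in Control, 84.2 in PJ34, 88.9 in IFNγ and 88.5 in IFNγ+PJ34, with its fold enrichment highest in Control at 34.4 and lowest in IFNγ at 15.9. By rank Oasl1 differed little between Control and both lists with IFNγ, and it was the one gene lower in IFNγ+PJ34 than in IFNγ.

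To determine what IFNγ changed at these promoters, the percentiles in IFNγ and Control were subtracted. IFNγ was higher for 9 of 10 genes, and over all 10668 genes with a promoter peak in both lists it was higher for 36.5%. The median difference was 3.50 percentile points for the antiviral genes and −1.39 for all genes. The largest differences were found at Ifit2 (13.5) and Ifit1 (13.4), followed by Ifit3 (8.48) and Rsad2 (5.67). The Ifit2 value sets the downstream peak of IFNγ against the start-site peak of Control. With the peak over the start site in both lists it was 8.14, below Ifit1 and Ifit3. The downstream peaks of Ifit2, at 74.8 in Control and 79.8 in IFNγ, differed by 5.00. The remaining genes lay between −2.57 (Isg15) and 4.23 (Ddx58). In Control these remaining genes stood between percentile 88.0 (Oasl1, with a difference of 0.920) and 97.2 (Oasl2, with a difference of 1.72). Whether a high rank in Control limited the differences was not tested.

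Fold enrichments were also compared after division by the median promoter fold enrichment of their list, which was 25.9 in Control, 23.7 in PJ34, 19.3 in IFNγ and 18.4 in IFNγ+PJ34. On this scaled measure, IFNγ was at least 1.5 times Control for 4 genes (Ifit1 2.66, Ddx58 1.98, Ifit3 1.70, Oasl2 1.66), where 15.9% of all genes passed the same threshold. Isg15 (0.563) and Oasl1 (0.620) were below the opposite threshold. The scaled fold and the percentile therefore differed in direction at Oasl1.

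The comparison of PJ34 with Control asks what the inhibitor did in cells without IFNγ. PJ34 was higher than Control for 1 of 10 genes, Ifih1, and over all 10869 genes it was higher for 58.8%. The median difference was −3.42 points for the antiviral genes and 0.748 for all genes. The lowest values were those of Ifit3 (−16.2), Ifit2 (−13.4) and Rsad2 (−9.58). By scaled fold enrichment, 5 genes were below Control by at least 1.5 times (Ifit3 0.427, Rsad2 0.475, Ifit2 0.541, Usp18 0.587, Oasl1 0.624), and 14.4% of all genes were. Ranked by score, effector genes such as Ifit3 were thus lower with the inhibitor in the unstimulated state, while most other promoters were not. PJ34 was below Control for 7 of 10 genes when ranked by fold enrichment and for 5 when ranked by peak width. The promoter region was divided into more than 1 peak at 7 of the 10 genes in PJ34 and at 3 in Control. The share of divided promoter regions over all genes was not counted, and the part of this division in the lower ranks was not tested.

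The difference made by IFNγ was then taken in cells that had received PJ34, where it was larger in percentile points than in cells without PJ34 at each of the 10 genes, where 37.8% of all 10479 genes with a promoter peak in all 4 lists met this condition. IFNγ+PJ34 was above PJ34 for 10 of 10 genes, where 26.6% of all 10674 genes were. The median difference was 9.53 points for the antiviral genes and −4.22 for all genes. The largest differences were those of Ifit2 (43.2), Ifit3 (25.7), Rsad2 (17.7), Ifit1 (15.7) and Ddx58 (11.6). By scaled fold enrichment 8 genes were at least 1.5 times higher, with Ifit2 at 10.1, Ifit3 at 4.35 and Ifit1 at 4.12, and 20.3% of all genes passed that threshold. For Ifit2 and Ifit3, both measures set the PJ34 peak against an IFNγ+PJ34 peak with its summit elsewhere, 2.72 and 0.63 kb after the start. IFNγ minus Control and IFNγ+PJ34 minus PJ34 have no list in common, but the difference between them was not tested. PJ34 minus Control does share the PJ34 list with IFNγ+PJ34 minus PJ34, so a low PJ34 value lowers the former and raises the latter.

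Between both lists with IFNγ, IFNγ+PJ34 was above IFNγ for 9 of 10 genes, where 40.3% of all 10574 genes were. The median difference was 2.02 points for the antiviral genes and −1.24 for all genes, so the separation was smaller than in the other comparisons. Ranking by peak width in place of score turned the median of the antiviral genes to −0.0859, with 5 of 10 genes higher. Ifit2 (16.3, or 21.6 with the peak over the start site in both lists) and Isg15 (5.42) had the widest differences and Oasl1 the lowest, at −0.444. Both summits behind the 16.3 of Ifit2 lay 2.7 kb after the start. The 21.6 sets a summit at 0.205 kb in IFNγ against the one at 2.72 kb in IFNγ+PJ34. At Ifit3 the IFNγ+PJ34 peak with its summit before the start, as in IFNγ, was at 87.4, below IFNγ at 90.0. At least 1.5 times the scaled fold enrichment was found for Ifit2 (3.72) and Isg15 (2.28), 2 of 10 genes, where 20.2% of all genes passed. The promoter region was divided into a different number of peaks in these 2 lists at 8 of the 10 genes, and the share over all genes was not counted. The IFNγ+PJ34, PJ34, IFNγ and Control lists each enter more than 1 of these comparisons, which are therefore not independent.

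**Figure D4:**
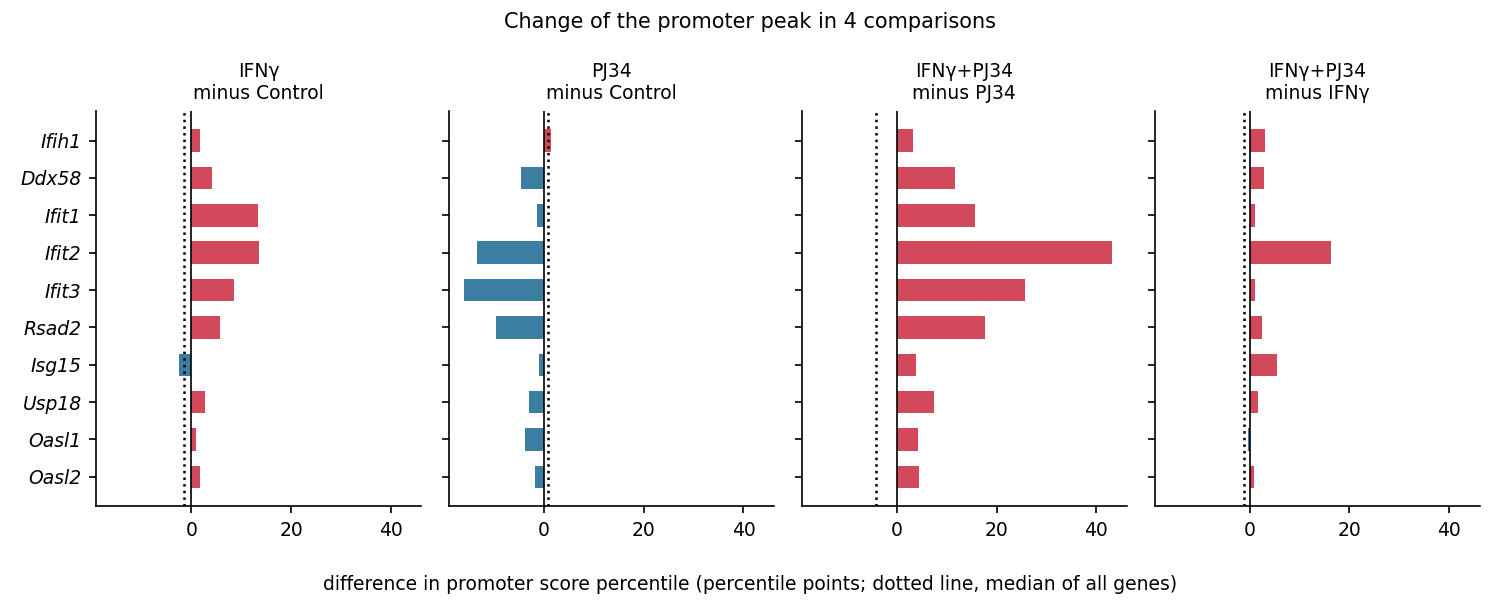
Difference in promoter score percentile (x axis, percentile points) for each gene in 4 comparisons, with red bars for higher, blue bars for lower and a dotted line at the median of all genes. The bars point to the right for 9, 1, 10 and 9 of the 10 genes from the left to the right panel, and the Ifit2 bar of IFNγ+PJ34 minus PJ34 reaches 43.2 points.

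The order of lists from low to high was PJ34, Control, IFNγ and IFNγ+PJ34 for 7 of 10 genes (Ddx58, Ifit1, Ifit2, Ifit3, Rsad2, Usp18 and Oasl2), an order noticed after the values were seen. Among the 10479 genes with a promoter peak in all 4 lists, 2.72% had this order. Ranking by fold enrichment left 4 genes in this order, and ranking by peak width left 2. PJ34 was lowest for 8 genes and IFNγ+PJ34 highest for 9, where 9.05% and 16.1% of all genes were. Ifit3 is counted among the 7 and the 9 through the IFNγ+PJ34 peak with its summit after the start. With the other IFNγ+PJ34 peak of its promoter, at 87.4, it was below IFNγ, at 90.0.

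The 50 kb windows held 54 distinct peaks in Control, 60 in PJ34, 50 in IFNγ and 74 in IFNγ+PJ34. When the peaks of all lists were merged, these made 63 regions of 55218 in all, and 17 of the 63 lay within reach of more than 1 of the genes. The 31 regions found in all 4 lists were 49.2% of the 63, and 38.9% of all regions were of this kind. The other 32 regions were missing from at least 1 list. The peak nearest to the inside of the 50 kb limit lay 49.7 kb from the Ifit3 start in IFNγ+PJ34, at percentile 57.4. The nearest outside lay 50.2 kb from it in Control, at percentile 26.9, and belonged to the same region.

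The other regions in these windows differed between lists in both directions. Of the 31 regions in all 4 lists, 10 held the promoter peaks, and 21 lay elsewhere. Among these 21, IFNγ was above Control in 12, PJ34 above Control in 11, IFNγ+PJ34 above PJ34 in 11 and IFNγ+PJ34 above IFNγ in 11. Over all 21468 such regions the shares were 38.1%, 50.9%, 39.1% and 49.0% in the same order. Median differences in the 21 regions were 3.05, 0.150, 0.260 and 0.174 percentile points, with single regions from −53.9 to 61.9 for IFNγ minus Control.

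The promoter of Ifit3b, a close copy of Ifit3 in the same cluster, held the highest-scoring peak within 50 kb of both Ifit1 and Ifit3, at percentile 86.9 in Control, 79.0 in PJ34, 95.3 in IFNγ and 98.5 in IFNγ+PJ34. Reads that map to more than 1 place had been discarded by the authors, so sequence that is identical between Ifit3 and Ifit3b would be under-represented in every list. The highest-scoring peak near Ifit2 was a block of 12591 to 16290 bp over Lipa, which encodes lysosomal acid lipase, and it ranged from 90.5 in PJ34 to 98.4 in IFNγ+PJ34. An intergenic region 16.6 kb downstream of the Rsad2 start (chr12:26439483-26440333) was at percentile 3.96 in Control, 42.5 in PJ34, 65.9 in IFNγ and 60.2 in IFNγ+PJ34. It was the region with the widest difference between IFNγ and Control in these windows.

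Few peaks near these genes appeared with IFNγ. A peak of the IFNγ list is called gained when no Control peak overlaps it by at least 1 bp. This applied to 5 of the 50 IFNγ peaks, or 10.0% (exact Clopper-Pearson 95% interval 3.33% to 21.8%, which covers counting error only), where 16.8% of all IFNγ peaks were gained. The 5 peaks lay near 4 genes (Ddx58, Ifit2, Ifit3 and Rsad2), and 26.0% of all protein-coding genes had a gained peak within 50 kb. In the reverse direction, 9 of 54 Control peaks (16.7%, exact interval 7.92% to 29.3%) were absent from IFNγ, where 31.7% of all Control peaks were.

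The 5 gained peaks ranked between percentile 4.54 and 46.7 of the IFNγ list. Their ranks were not compared with those of gained peaks elsewhere in the list. The highest, at percentile 46.7 with a fold enrichment of 5.54, lay in a Ddx58 intron (chr4:40232690-40233888), 5.94 kb from the Ddx58 start. It had counterparts at 32.8 in PJ34 and 67.8 in IFNγ+PJ34. The peak in the last part of Ifit3 (chr19:34588168-34588746, exon), at 41.2, overlapped a peak of the IFNγ+PJ34 list but none of the PJ34 list. So did an intergenic peak 17.0 kb from the Rsad2 start (chr12:26438741-26439428), which was at 10.4 in IFNγ and 54.3 in IFNγ+PJ34. The last 2, in a Lipa intron (chr19:34508039-34508411, at 10.4) and upstream of Ifit2 (chr19:34544829-34545168, at 4.54), overlapped a PJ34 peak and no IFNγ+PJ34 peak. The Lipa site fell into a merged region that all 4 lists held, although no Control peak overlapped the IFNγ peak itself.

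In total, 3 of the 5 gained peaks were found in IFNγ+PJ34 (60.0%, exact interval 14.7% to 94.7%) and 3 of 5 in the list from cells given PJ34 without IFNγ. Over all gained peaks the shares were 38.8% and 43.6%. With 5 peaks the interval spans most values, and no preference for either list could be resolved. An ISRE core lay within 150 bases of the summit of 2 of the 5 gained peaks, where 4.44% of the 300-base windows at all IFNγ summits held one, and none of the 10 promoter peak summits of these genes did. The 300 bases around both summits are given below on the plus strand of mm10, with the ISRE core in capitals, as the only gained sites near these genes that hold it. The first is the Ddx58 intron site (chr4:40233186-40233485) and the second the site upstream of Ifit2 (chr19:34544856-34545155).
Ddx58 intron: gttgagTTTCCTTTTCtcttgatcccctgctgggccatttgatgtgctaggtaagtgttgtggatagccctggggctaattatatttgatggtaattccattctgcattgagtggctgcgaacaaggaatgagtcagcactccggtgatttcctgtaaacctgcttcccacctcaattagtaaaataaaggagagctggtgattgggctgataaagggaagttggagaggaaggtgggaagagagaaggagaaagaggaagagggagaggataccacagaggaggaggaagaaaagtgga
Ifit2 upstream: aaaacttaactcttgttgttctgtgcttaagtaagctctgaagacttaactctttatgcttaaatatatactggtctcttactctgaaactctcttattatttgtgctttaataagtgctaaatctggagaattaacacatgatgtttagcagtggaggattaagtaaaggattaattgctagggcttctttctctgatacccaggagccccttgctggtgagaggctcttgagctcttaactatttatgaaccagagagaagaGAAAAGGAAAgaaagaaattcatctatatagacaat

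Among regions found in a single list, those of IFNγ+PJ34 were the most numerous in these windows. Depth is unknown, so the reach of each list for weak peaks could not be compared. Of the 63 regions, 15 (23.8%) were found in IFNγ+PJ34 alone, where 10.4% of all merged regions were, and 0 were found in IFNγ alone, where 4.07% of all regions were. These 15 regions were narrow, from 206 to 583 bp, and 14 of the 15 were in the lower-scoring 50% of the list, with a median percentile of 21.9. Their median width was 371 bp, against 382 bp for all 5758 regions found in IFNγ+PJ34 alone. The median percentile of those 5758 regions also lay in the lower-scoring 50%, so narrow width and low rank were not particular to these windows. By position 9 of the 15 were intergenic, 3 intronic, 2 exonic and 1 at a promoter, that of Rnf144a. Rsad2 had 4 of them in its window, Ddx58, Ifit2 and Ifit3 had 3 each, Usp18 had 2, Ifih1, Ifit1, Oasl1 and Oasl2 had 1 each, and Isg15 had none. The highest was a 375 bp site in a Ddx58 intron, at percentile 55.4.

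Counted as peaks, 22 of 74 IFNγ+PJ34 peaks (29.7%) were absent from IFNγ and 25 of 74 (33.8%) from PJ34, where the shares over all peaks were 27.2% and 25.7%. For PJ34 against Control, 9 of 60 peaks (15.0%) were absent, and 19.5% of all PJ34 peaks were. The exact intervals of the member shares, 19.7% to 41.5%, 23.2% to 45.7% and 7.10% to 26.6%, included the share over all peaks in each case.

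The sequence covered by peaks within 50 kb of a start site was compared after division by the total length of each list. The ratio of IFNγ to Control had a median of 1.29 over the 10 genes, from 0.983 (Ifit1) to 1.47 (Rsad2), and a median of 1.04 over all genes. Without the division by list length, the median over the 10 genes was 1.04, with 6 of 10 genes higher in IFNγ. No gene of the 10 reached 1.5, where 8.59% of all 15301 genes did. For IFNγ+PJ34 over PJ34 the ratio was 2.50 at Rsad2, 2.40 at Ifit3 and 1.88 at Ifit1, with a median of 1.25 over the 10 genes and 0.968 over all genes. At Rsad2 the covered length itself was 7.29 kb in Control, 4.75 kb in PJ34, 8.66 kb in IFNγ and 10.9 kb in IFNγ+PJ34. Isg15 was again the exception, with 12.0 kb in Control, 10.2 kb in PJ34, 10.3 kb in IFNγ and 7.45 kb in IFNγ+PJ34.

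**Figure D5:**
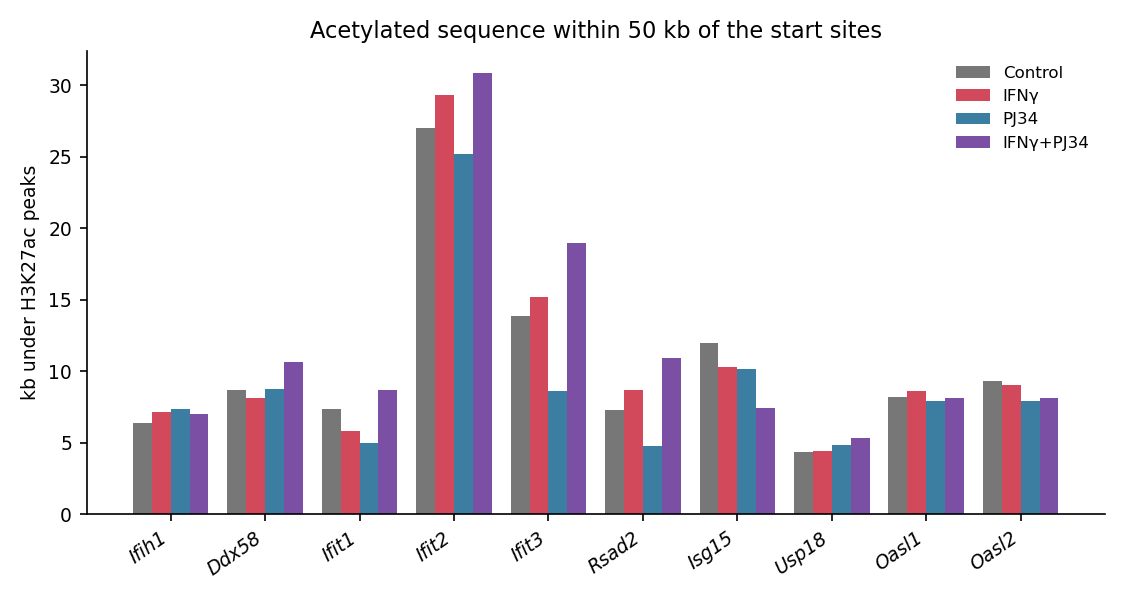
Kilobases under H3K27ac peaks within 50 kb of the start sites of each gene (y axis, not scaled for list length), with 1 bar for each list. Neighbouring genes share peaks, so the Ifit genes and the Oasl genes are not separate measurements. Rsad2 ranges from 4.75 kb in PJ34 to 10.9 kb in IFNγ+PJ34, and Isg15 is lowest in IFNγ+PJ34, at 7.45 kb.

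Other genes of the same pathway were followed in a list of 30, of which 29 matched the annotation, and all 29 had a promoter peak in every list. IFNγ was above Control at 20 of the 29, PJ34 above Control at 7, IFNγ+PJ34 above PJ34 at 26 and IFNγ+PJ34 above IFNγ at 18, with the shares over all genes as given above. The ISG15 conjugation enzymes Uba7, Ube2l6 and Herc6 were all higher in IFNγ than in Control, Uba7 by 5.77 points, and 11 of 13 other effectors were. Zbp1, a sensor of Z-form nucleic acid, was at percentile 91.4 in Control, 83.2 in PJ34, 98.6 in IFNγ and 98.4 in IFNγ+PJ34, the same split between lists as at Ifit1. Of the type I receptor and signalling genes, 2 of 7 were higher in IFNγ than in Control. Of the sensing genes 4 of 6 were higher in IFNγ, and Mavs, the adaptor of RIG-I and MDA5, was lower, at 75.9 in Control and 62.9 in IFNγ.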

How the data were processed

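H3K27ac ChIP-seq and input libraries from BMDMs were grouped by their sample titles. Per the study's methods, the authors used Bowtie for alignment to mm10, Samtools and Picard to keep reads with a single mapping position, and MACS to call peaks per replicate at p 0.01 over input, and deposited the peaks called in both replicates as 1 list per condition. Each deposited peak has a score (whole numbers from 10 to 1000), a fold enrichment (ratio over local background), −log10 values of p and q (−log10 p-value and q-value), and a summit offset from the peak start. Because no replicate lists or counts were analysed here, differences in depth, immunoprecipitation efficiency or peak splitting between conditions cannot be told apart from differences in acetylation.

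Percentiles are mid-ranks of the score within a list. Start sites of protein-coding genes came from GENCODE M21 (basic set, GRCm38). A promoter peak was the highest-scoring peak within 1 kb of a start site. Peaks overlapping by at least 1 bp were shared. Ranks were chosen because depth is unknown. The genes, gene lists, motifs and rules were chosen with earlier results of these data known. The genes named are the 10 genes, 30 further pathway genes, of which Mx2 was not matched among protein-coding genes, and genes with a start site in a described peak; the Ddx58, Rsad2 and single-region examples were chosen after their values were seen. The values of 1 pathway gene are not reported here. Functions were tested on simulated data. Python 3.11.15, numpy 2.4.6, pandas 2.3.3, scipy 1.17.1, pysam 0.24.0 and matplotlib 3.10.9 were used.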

Additional observations from a re-analysis of the deposited data

Results flagged for a closer look

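The Isg15 promoter moved in opposite directions with IFNγ in cells without and with PJ34. Its score percentile differed by −2.57 points between IFNγ and Control and by 3.85 points between IFNγ+PJ34 and PJ34. Each condition had 1 list, so the contrast between both differences was not tested. The Isg15 peak of the IFNγ+PJ34 list was 2139 bp wide and separate from the Agrn promoter, while the peaks of the other lists were 5099 to 5271 bp wide and reached Agrn. The part of this split in the result was not tested.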

How the results depend on the processing

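Of 52 alternatives over 8 results, 49 gave a value close to the reported one, 2 moved and 1 reversed. Close meant a share inside its 95% interval, or a count or median within 1.5 times. These limits are wide. The shares of 3 of 5 gained peaks had an interval of 14.7% to 94.7%, which few alternatives could leave. The length ratio of IFNγ to Control counted as close at 1.04 without scaling, against 1.29, with 6 in place of 9 genes higher. Taking the highest-scoring peak within 50 kb in place of the promoter peak moved the median difference of IFNγ minus Control from 3.50 to 1.76 points and that of IFNγ+PJ34 minus IFNγ from 2.02 to 3.08. Ranking by peak width turned the latter to −0.0859, with 5 of 10 genes higher. IFNγ+PJ34 stayed above PJ34 for 10 of 10 genes when ranked by fold enrichment and for 9 when ranked by width. Counting merged regions and requiring a peak over the start site itself were added after seeing the data. No paired analysis was possible because each deposited list was made from both replicates. Leaving out a replicate was not possible either. Depth is unknown, so the reach of the 4 lists for weak peaks, such as the gained sites and the sites found in IFNγ+PJ34 alone, could not be compared.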
